A study of Mus musculus with 4 samples.

Results

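The genes described here are the mouse protein-coding genes that still carry a RIKEN clone identifier of the 1700 series, with a symbol that begins with 1700 and ends in Rik. They were taken from the deposited expression table by its own symbol and biotype columns, which gave 95 of its 31600 features. The RNA came from mouse spermatogonial stem cells, which maintain sperm production, in a control group and a differentiation group with 2 libraries each. The control group has the genotype entry WT and the other group has the entry Differentiation in the same field. The sources used here do not state how the cells were made to differentiate, for how long, or the strain and age of the animals. The comparison asks which of these genes have more or less RNA in the differentiation group.

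The RIKEN mouse cDNA project sequenced full-length cDNA clones tissue by tissue, and the 1700 clones were drawn from adult testis. Genes that keep such a name have mostly not been given a functional one, although some now have a formal symbol or a named human counterpart. Spermatogonia divide by mitosis, enter meiosis as spermatocytes and are then reshaped into spermatids and sperm. Many testis genes are first transcribed in spermatocytes or spermatids, among them genes of the synaptonemal complex, the acrosome and the sperm tail.

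Values are FPKM, which are fragments scaled to exon length and library size, so that levels can be compared between genes. From the steps of the low values, depth was put at 19461724 and 20650244 fragments in control, and at 17772010 and 20363285 in differentiation. Differences were tested with limma on log2(FPKM + 1) over the 23138 features whose mean reached 0.5 FPKM, and a gene is called higher or lower at a Benjamini-Hochberg adjusted p under 0.05. Log2 fold changes are on that scale, on which low genes change by less than their ratio of FPKM. Whether the libraries of a group are separate cultures or animals is not labelled, so the p-values measure only the spread between these libraries. For a single value, 2 libraries against 2 cannot give an exact two-sided permutation p below 0.333.

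The 2 groups differed in cell markers as well. Of 16 spermatocyte markers, all 16 were called higher, and their summed level was 153 and 157 FPKM in control and 1108 and 1136 FPKM in differentiation. The 9 markers of differentiating spermatogonia summed to 459 and 451 FPKM in control and to 382 and 379 FPKM in differentiation, with 5 called lower, among them Kit and Stra8, and 2 called higher. The 19 markers of undifferentiated spermatogonia summed to 205 and 208 FPKM in control and to 67.8 and 66.4 FPKM in differentiation, with 14 called lower and 1 called higher. Markers of fibroblasts and peritubular cells were present as well, and they summed to 284 and 283 FPKM in control and 92.1 and 86.3 FPKM in differentiation. Macrophage and leukocyte markers went from 64.0 and 60.4 FPKM to 17.0 and 16.4 FPKM. The 12 round spermatid markers summed to 12.5 and 9.8 FPKM in control and 29.9 and 32.6 FPKM in differentiation. Of the 9 tested, 4 were called higher and 0 lower. Among the 4, Acr went from 0.41 and 0.29 FPKM to 9.05 and 9.8 FPKM, and Spata16 from 0.049 and 0.092 FPKM to 9.54 and 11.2 FPKM. Acrv1, Tssk1, Tssk2, Tssk6 and Izumo1 were tested and not called. Elongating spermatid markers summed to 11.5 and 10.2 FPKM in control and 19.8 and 20.2 FPKM in differentiation, with 3 of the 4 tested called higher. Sertoli cell markers summed to between 154 and 169 FPKM in the 4 libraries, but moved both ways, with 4 of the 10 tested called higher and 4 called lower. Of the Leydig cell markers, 1 of the 4 tested was called higher and 2 were called lower. The part of these cell types in the results on the 1700 series genes was not tested. In bulk RNA, more cells of a type and more RNA per cell cannot be told apart.

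Most of the 1700 series protein-coding genes with enough RNA to be tested were called higher in differentiation. Of the 95 genes, 73 reached the mean of 0.5 FPKM and were tested, 46 of them were called higher, 1 was called lower and 26 were not called. Over all features tested, 29.6% were called higher and 27% were called lower, against 63.0% and 1.37% of the tested 1700 series genes. The median log2 fold change of the 73 genes was 0.89, and that of all features tested was 0.01. With the 3 tested genes at 0 in control set to their lower bound, the median of the 73 was again 0.89. These 3 genes lie above the median with or without the bound, so this step could not change it. Among the called genes 16 rose by at least 2 on the log2 scale, which is 21.9% of the tested genes, against 2.79% of all features tested. A further 14 rose by 1 to 2 and 16 by less than 1.

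The filter on the mean admits a gene that is silent in control only if it is high in differentiation, so the control level was examined by itself. With a control mean under 0.5 FPKM there were 44 genes, of which 24 were tested and 23 called higher. Such a gene passed the filter only through the differentiation group, and of the 1649 features of the whole table tested at this control level 75.6% were called higher as well. Among the 16 genes with a rise of at least 2 on the log2 scale, some had a control mean of at least 0.5 FPKM. These were 1700010I14Rik, 1700102P08Rik, 1700020N01Rik, 1700003E16Rik, 1700029P11Rik, 1700019A02Rik and 1700010B08Rik. The others of the 16 passed the filter only through the differentiation group. Of the 51 genes with a control mean of at least 0.5 FPKM, 49 were tested, 23 were called higher, 1 was called lower and 25 were not called. The same control level held for 21489 tested features of the whole table, with 26.1% called higher and 29.1% called lower, against 46.9% and 2.04% for the 1700 series genes. The median log2 fold change was 0.24 in the 49 tested genes at this control level and -0.039 in these features. Under 0.5 FPKM in control, the median was 1.675 in the 24 tested genes and 0.975 in the 1649 features. Without any filter, both differentiation libraries lay above both control libraries for 61 of the 95 genes and below for 12, and the groups overlapped for 22. Over all 31600 features 38.5% lay above and 36.1% lay below.

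The summed level of the 95 genes was 165 and 166 FPKM in the control libraries and 599.9 and 630.6 FPKM in the differentiation libraries. The 5 genes with the highest level in differentiation made up 3.57% and 3.75% of that sum in control and 34.8% and 34.6% in differentiation. At least 1 FPKM was reached by 36 and 39 genes in the control libraries and by 59 and 62 in the differentiation libraries. At least 10 FPKM was reached by 5 and 4 genes in control and by 21 and 22 in differentiation. The plot of mean levels in the 2 groups shows these genes as a column above the diagonal at low control levels, and no point far below it.

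**Figure D1:**
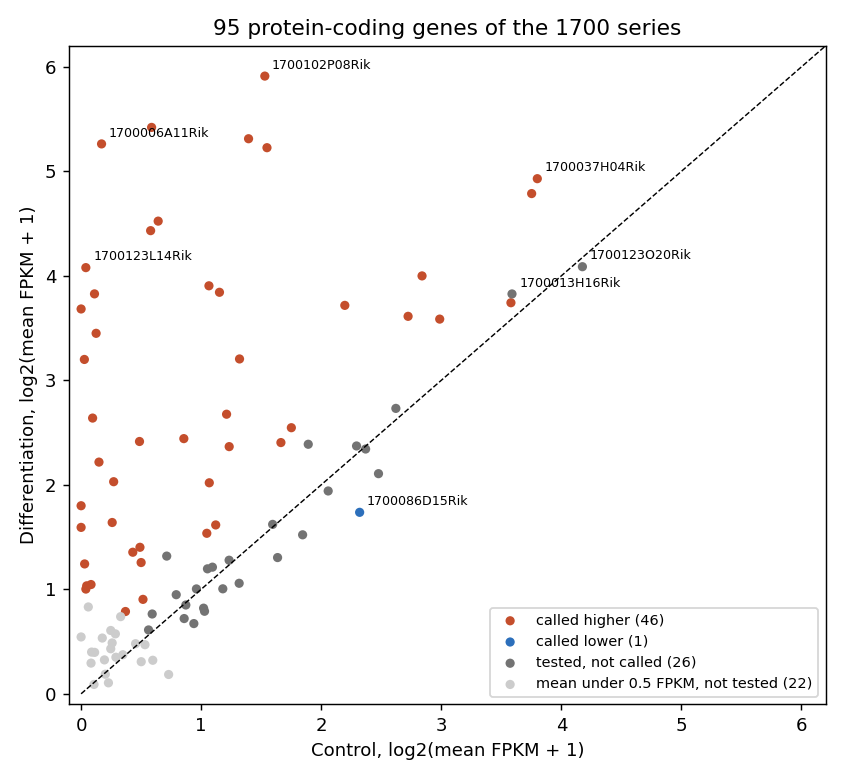
Mean level of each of the 95 genes in control (x axis) and differentiation (y axis), both as log2(mean FPKM + 1), with the dashed line marking equal levels. Points are coloured by the outcome of the limma test. The 46 genes called higher lie above the line, the 1 gene called lower (1700086D15Rik) lies below it, and the 22 untested genes sit near the origin.

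The largest fold change on the log2(FPKM + 1) scale was that of 1700006A11Rik (ENSMUSG00000027973, chr3:124400989-124426040 in GRCm38), whose longest coding model has 544 residues. It stood at 0.0713 and 0.179 FPKM in the control libraries and at 36.8 and 38 FPKM in the differentiation libraries, which are 3 and 8 against 1413 and 1671 fragments. The gene thus went from the edge of detection to one of the highest levels of the series (log2 fold change 5.09, SE 0.07, limma adjusted p = 7.72e-05). The order depends on the scale: in a limma-voom fit on recovered fragments, 1700029F12Rik (9.06) and 1700123L14Rik (8.92) lay above 1700006A11Rik (8.18). 1700010I14Rik (ENSMUSG00000023873, chr17:8988333-9011949) read 0.435 and 0.569 FPKM in control and 40.7 and 42.9 FPKM in differentiation. Its rise was 83.3-fold between the group means (log2 fold change 4.83, SE 0.07, limma adjusted p = 7.72e-05).

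1700102P08Rik (ENSMUSG00000032611, chr9:108392805-108410934), a testis gene needed for male meiosis in mice, had the highest level of the series in differentiation. Its libraries read 1.62 and 2.15 FPKM in control and 57.3 and 61.1 FPKM in differentiation. The group means were 1.89 ± 0.377 FPKM and 59.2 ± 2.71 FPKM (SD, n = 2 each), a 31.3-fold rise (log2 fold change 4.39, SE 0.10, limma adjusted p = 0.000116). In both groups the libraries lay close together beside the gap between the groups.

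The promoter windows of 5 genes are shown because 4 of them belong to genes among the largest rises and the fifth to a well expressed gene that was not called, and they were chosen after the values and the windows were seen. Each runs from 250 bases before to 50 bases after the RefSeq start in GRCm38.p6 and is written 5′ to 3′ along the gene. The letters searched on both strands were AACGG and AACTG (the core of sites bound by MYB proteins, of which A-MYB drives many genes of male meiosis), GTTGCC (the core of the RFX site), and TGACG (the short form of the CRE, which CREM and CREB bind). Capitals mark these letters or their reverse complements. The reverse complement of GTTGCC can overlap AACGG or AACTG, and a joined run of capitals can hold several matches. The window of 1700010I14Rik is chr17:8988083-8988382 on the plus strand, that of 1700102P08Rik is chr9:108392584-108392883 on the plus strand, and that of 1700074P13Rik is chr6:40940508-40940807 on the minus strand. The window of 1700029F12Rik is chr13:97034313-97034612 on the minus strand and that of 1700123O20Rik is chr14:54685921-54686220 on the plus strand.
1700010I14Rik: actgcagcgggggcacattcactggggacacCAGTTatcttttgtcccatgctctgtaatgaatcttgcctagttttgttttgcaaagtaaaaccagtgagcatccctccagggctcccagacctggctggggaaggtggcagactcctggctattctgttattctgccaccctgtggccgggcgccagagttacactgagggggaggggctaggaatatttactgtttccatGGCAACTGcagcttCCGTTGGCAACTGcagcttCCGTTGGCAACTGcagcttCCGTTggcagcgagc
1700102P08Rik: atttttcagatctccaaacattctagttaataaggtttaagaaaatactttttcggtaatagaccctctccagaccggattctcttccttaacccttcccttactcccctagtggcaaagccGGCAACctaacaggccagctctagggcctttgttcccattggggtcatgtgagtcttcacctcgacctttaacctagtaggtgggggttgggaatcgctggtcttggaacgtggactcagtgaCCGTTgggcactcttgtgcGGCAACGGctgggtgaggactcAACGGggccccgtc
1700074P13Rik: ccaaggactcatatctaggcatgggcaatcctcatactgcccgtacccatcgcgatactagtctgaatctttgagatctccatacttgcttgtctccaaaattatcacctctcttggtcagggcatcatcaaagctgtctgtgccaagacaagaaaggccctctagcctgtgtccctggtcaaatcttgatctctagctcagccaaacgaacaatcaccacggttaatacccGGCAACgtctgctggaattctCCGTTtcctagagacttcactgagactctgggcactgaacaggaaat
1700029F12Rik: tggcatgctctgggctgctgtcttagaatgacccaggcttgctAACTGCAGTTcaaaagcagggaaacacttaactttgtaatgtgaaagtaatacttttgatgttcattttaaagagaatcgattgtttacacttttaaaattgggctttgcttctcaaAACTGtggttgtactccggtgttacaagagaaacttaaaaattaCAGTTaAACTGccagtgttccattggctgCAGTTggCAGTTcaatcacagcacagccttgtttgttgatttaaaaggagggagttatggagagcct
1700123O20Rik: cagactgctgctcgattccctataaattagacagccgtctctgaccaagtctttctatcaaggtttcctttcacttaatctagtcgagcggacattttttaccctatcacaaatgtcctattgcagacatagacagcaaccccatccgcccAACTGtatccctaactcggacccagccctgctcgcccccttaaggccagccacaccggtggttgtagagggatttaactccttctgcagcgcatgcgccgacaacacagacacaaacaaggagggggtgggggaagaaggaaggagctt

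In the 1700010I14Rik window a run of 19 bases, tggcaactgcagcttccgt, stands 3 times in a row from 18 bases before the start, over 57 bases. Each copy holds GTTGCC on the minus strand and AACTG on the plus strand, and AACGG on the minus strand spans its end and the next base. The 1700102P08Rik window holds AACGG at 3 places, from 5 bases before to 36 bases after the start, and GTTGCC at 2 places. In the 1700074P13Rik window GTTGCC begins 18 bases before and AACGG 3 bases after the start. The 1700029F12Rik window holds AACTG at 7 places and none of the other letters. In the window of 1700123O20Rik, which was not called, AACTG occurs once, 99 bases before a start that is not the start of a transcript in GENCODE M21. The windows of 1700020N01Rik, 1700003E16Rik and 1700028J19Rik are not printed, although their log2 fold changes were larger than that of 1700074P13Rik. That of 1700020N01Rik held none of these letters. In that of 1700003E16Rik only TGACG was found, 88 bases before the start, and in that of 1700028J19Rik only AACTG. These matches describe the letters and are neither shown binding sites nor a cause of the levels.

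RefSeq gave a window for 73 of the 95 genes, of which 36 were called higher. AACGG stood in 13 of these 36 (36.1%), in 5 of the 37 other members (13.5%) and in 17.7% of the windows of 27025 genes. GTTGCC stood in 10 of the 36 (27.8%), in 6 of the 37 (16.2%) and in 12.7% of all windows. TGACG stood in 11 of the 36 (30.6%), in 4 of the 37 (10.8%) and in 20.9% of all windows, and the full palindrome TGACGTCA, which contains it, in 1 of the 36, none of the 37 and 1.85% of all windows. For AACTG the shares were 52.8%, 51.4% and 44.8%, and for CCAAT 33.3%, 35.1% and 38.0%. The E-box CACGTG stood in 13.9%, 8.11% and 7.24%, and the GC box GGGCGG in 30.6%, 21.6% and 35.9%. Among the 12 windows of genes with a rise of at least 2 on the log2 scale, AACGG stood in 6, AACTG in 6, CCAAT in 5, GTTGCC in 4, TGACG in 3, GGGCGG in 2, and TGACGTCA and CACGTG in 0. Base composition differed between these sets of windows too, with a median of 9 CpG in the windows of genes called higher, 4 in those of the other members and 7 in all. Its part in the shares was not tested.

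A further 4 genes rose from under 0.2 FPKM to over 7 FPKM. 1700074P13Rik (chr6:40920437-40940557), for which RefSeq gives the synonym Tryx5, a member of the trypsin-like serine protease family, read 0.0557 and 0.105 FPKM in control and 12.9 and 13.4 FPKM in differentiation (log2 fold change 3.72, SE 0.08, limma adjusted p = 0.000106). 1700029F12Rik (chr13:97021864-97034362) had no fragment in either control library and 218 and 300 fragments, or 10.8 and 12.9 FPKM, in differentiation. Against a floor of 3 fragments over the control group it was at least 180.5-fold higher (limma adjusted p = 0.000176). Its promoter window, printed above, is the one with 7 copies of AACTG. 1700012B09Rik (chr9:14756587-14771030), whose human counterpart is C11orf97, went from 0.0627 and 0.118 FPKM to 9.0 and 10.9 FPKM (limma adjusted p = 0.00021). With 1 and 2 control fragments the ratio of its counts was 109, with an exact 95% counting interval of 37.1 to 533. 1700011I03Rik, now Ccdc192 in RefSeq, a coiled-coil protein by name, went from 0.038 and 0 FPKM to 7.37 and 9.01 FPKM (limma adjusted p = 0.000247). It had 1 fragment in the control group, so its ratio of 447 carries an interval of 79.8 to 17698. These intervals cover counting error only.

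1700123L14Rik (ENSMUSG00000072878, chr6:96164497-96166243) is a single-exon gene of 440 residues that RefSeq classes as a transcribed pseudogene with the synonyms Npap60 and Nup50. Nup50 is a protein of the nuclear pore. The copy read 0 and 0.0554 FPKM in control and 15.4 and 16.4 FPKM in differentiation (log2 fold change 4.04, SE 0.08, limma adjusted p = 9.81e-05). Its control libraries held 0 and 2 fragments, which gives a count ratio of 558 with an interval of 154 to 4614. Nup50 itself read 15.6 and 16.4 FPKM in control and 19.5 and 20.2 FPKM in differentiation, which is 0.30 on the log2 scale (limma adjusted p = 0.00603). No source used here says how reads that match both genes were assigned, so the split between the 2 is uncertain.

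The remaining genes among the 12 with the largest log2 fold change were already detected in control. 1700020N01Rik (chr10:21593145-21622376) read 1.81 and 1.45 FPKM in control and 38.6 and 38.9 FPKM in differentiation (log2 fold change 3.92, SE 0.08, limma adjusted p = 9.81e-05). 1700029P11Rik (chr15:81980540-81981563), a single-exon gene, read 1.96 and 1.89 FPKM in control and 35.6 and 37.3 FPKM in differentiation (log2 fold change 3.68, SE 0.05, limma adjusted p = 7.17e-05). In both genes the libraries of a group lay close together and far from those of the other group. 1700003E16Rik (chr6:83156404-83162945) read 0.532 and 0.589 FPKM in control and 21.3 and 22.7 FPKM in differentiation, a 39.3-fold rise (limma adjusted p = 8.85e-05). 1700028J19Rik (chr7:44229811-44246695) read 0.543 and 0.445 FPKM in control and 20.3 and 20.9 FPKM in differentiation, a 41.7-fold rise (limma adjusted p = 8.97e-05). RefSeq classes 1700020N01Rik and 1700028J19Rik as long non-coding RNAs, against the protein-coding biotype of the deposited table.

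**Figure D2:**
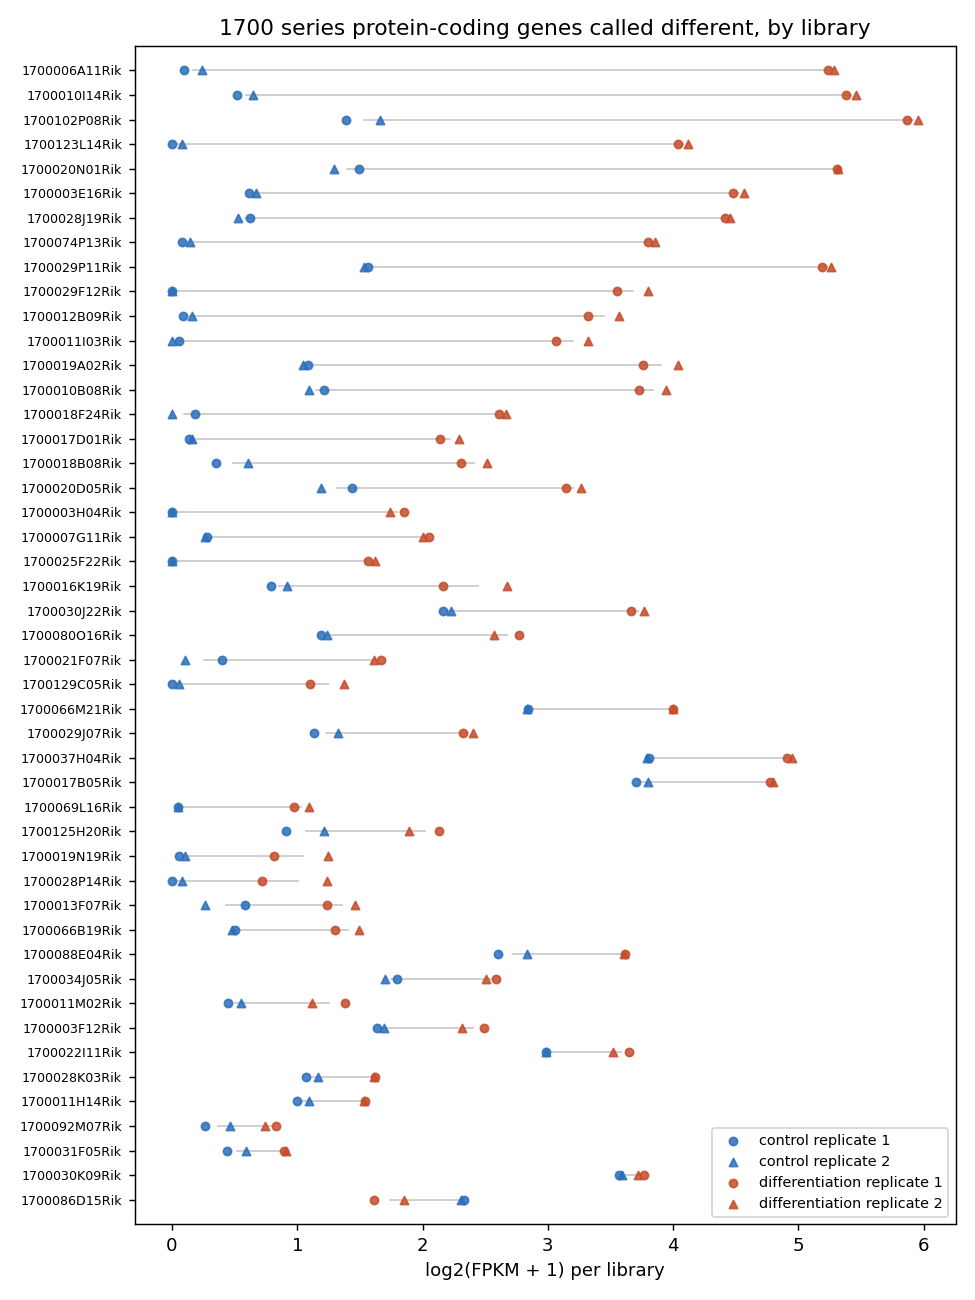
Level of each called gene in each library as log2(FPKM + 1), with control libraries in blue and differentiation libraries in red, circles for replicate 1 and triangles for replicate 2, and genes ordered by log2 fold change. Grey lines join the group means. In the 46 upper rows both red points lie to the right of both blue points, and in the lowest row (1700086D15Rik) they lie to the left.

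The plot of the called genes by library shows that control levels under 1 FPKM are common among the large rises. It shows also that the 2 libraries of a group mostly fall together. Differentiation replicate 2 lay above replicate 1 in 31 of the 46 genes called higher (67.4%), with a median ratio of 1.05. Over all 6848 features called higher it did so in 53.6%, with a median ratio of 1.01.

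Of the other 4 genes that rose by at least 2 on the log2 scale, named after their values were seen, 1700019A02Rik read 1.12 and 1.06 FPKM in control and 12.5 and 15.4 FPKM in differentiation. 1700010B08Rik read 1.31 and 1.13 FPKM in control and 12.3 and 14.4 FPKM in differentiation, and 1700018F24Rik 0.137 and 0 FPKM in control and 5.12 and 5.34 FPKM in differentiation. In each of these 3 genes both differentiation libraries lay far above both control libraries (limma adjusted p = 0.000265, 0.00024 and 0.000312). The last of the 4, 1700017D01Rik, is one of a pair of MS4A genes. The MS4A family encodes small proteins that span the membrane several times.

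The MS4A pair lies on chromosome 19 with 8.8 kb between the genes, and both rose. 1700017D01Rik (Ms4a20) read 0.0982 and 0.119 FPKM in control and 3.4 and 3.9 FPKM in differentiation, a 33.6-fold rise (log2 fold change 2.07, limma adjusted p = 0.00045). 1700025F22Rik (Ms4a19) had no fragment in control and 1.96 and 2.07 FPKM in differentiation, from 28 and 34 fragments. It was at least 21.7-fold higher (limma adjusted p = 0.000592). Other neighbours within 500 kb lie further apart. In the pairs 1700019D03Rik and 1700019A02Rik (138.4 kb) and 1700028J19Rik and 1700008O03Rik (113.3 kb), 1 gene was called higher and the other was not tested. 1700021F07Rik and 1700010B08Rik (190.9 kb) were both called higher. So were 1700006A11Rik and 1700003H04Rik, with 130.3 kb between them on chromosome 3. 1700003H04Rik had no fragment in control and read 2.62 and 2.35 FPKM in differentiation, at least 52.8-fold higher (limma adjusted p = 0.000521).

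Of 3 genes with names tied to cilia or the sperm tail, 1 was tested and called higher, and 2 were too low to be tested. The members were not searched for other ciliary roles, so these 3 are not a full count. 1700007G11Rik, now Cfap299, a cilia and flagella associated protein by name, read 0.213 and 0.201 FPKM in control and 3.15 and 3.02 FPKM in differentiation. That is a 14.9-fold rise (log2 fold change 1.76, limma adjusted p = 0.00047). 1700007K13Rik, which is Pierce1, a protein inside the doublet microtubules of cilia, was too low to be tested, at 0.16 and 0.10 FPKM in control and 0.233 and 0.662 FPKM in differentiation. Its control libraries both lay below its differentiation libraries, on 3 and 2 against 4 and 13 fragments. 1700006E09Rik, now Cfap97d1, was also not tested and lay the other way, at 0.708 and 0.607 FPKM in control and 0.212 and 0.0615 FPKM in differentiation (11 and 10 against 3 and 1 fragments). In a limma fit with no filter 1700006E09Rik was called lower. Among 8 markers of multiciliated cells, 7 had a row, and they summed to 6.4 and 5.97 FPKM in control and to 134 and 134 FPKM in differentiation, with 4 of the 5 tested called higher. Without Rsph1, at 103.5 and 103.4 FPKM in differentiation, the sums were 5.34 and 4.97 FPKM in control and 30.7 and 30.5 FPKM in differentiation. Foxj1, the master regulator of motile cilia, was not called, and Mcidas and Dnah5 stayed under 0.15 FPKM in every library. The 4 called higher were Rsph1, Tekt1, Ccdc39 and Ccdc40. Spermatocyte markers rose in the same libraries, and whether this RNA came from multiciliated cells or from germ cells was not tested.

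In meiosis, 1700028K03Rik is Spo16, the partner of Shoc1 in crossing over between homologous chromosomes. It read 1.1 and 1.25 FPKM in control and 2.07 and 2.06 FPKM in differentiation (log2 fold change 0.50, SE 0.10, limma adjusted p = 0.0142). The groups did not overlap, but the call was lost without control replicate 1, differentiation replicate 1 or differentiation replicate 2, at limma adjusted p = 0.073, 0.0658 and 0.0654. Of its 7963 exonic bases, 2950 are shared with Gm42669 and Glmn. Glmn read 12.4 and 11.7 FPKM in control and 11.1 and 10.8 FPKM in differentiation and was not called (limma adjusted p = 0.0837).

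A group of genes with higher control levels rose by a smaller factor. 1700037H04Rik (chr2:131146324-131160081), the counterpart of C20orf27, read 13 and 12.8 FPKM in control and 29.1 and 29.9 FPKM in differentiation. Its rise was 2.28-fold (log2 fold change 1.13, SE 0.03, limma adjusted p = 0.000157). 1700017B05Rik (chr9:57253117-57262612), the counterpart of C15orf39, read 12 and 12.9 FPKM in control and 26.3 and 26.9 FPKM in differentiation, a 2.13-fold rise (limma adjusted p = 0.000315). 1700066M21Rik (chr1:57377620-57385423) rose 2.43-fold from 6.18 and 6.14 FPKM to 15 and 15 FPKM (limma adjusted p = 0.000197). For these 3 genes the libraries of a group differed by at most about 1 FPKM. 1700029J07Rik, the counterpart of C4orf47, was lower in level, at 1.2 and 1.5 FPKM in control and 4.0 and 4.3 FPKM in differentiation (limma adjusted p = 0.00199).

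1700088E04Rik, the counterpart of C22orf23, read 5.07 and 6.14 FPKM in control and 11.2 and 11.2 FPKM in differentiation (log2 fold change 0.89, limma adjusted p = 0.00255). It shares 2474 of its 5292 exonic bases with Micall1 and Polr2f, and whether strand was used in counting is not given. Micall1 rose from 8.02 and 9.12 FPKM to 16.3 and 16 FPKM (log2 fold change 0.85), and Polr2f, a subunit of the RNA polymerases, fell from 24.5 and 25.3 FPKM to 14 and 14.4 FPKM (log2 fold change -0.77). Reads of the shared bases cannot be told apart, so the value of 1700088E04Rik is uncertain.

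Other genes of the series that were named by role or level were not called. 1700123O20Rik, the counterpart of C14orf119, had the highest level of the 95 genes in control, at 17.4 and 16.7 FPKM, and read 15.7 and 16.3 FPKM in differentiation (log2 fold change -0.09, limma adjusted p = 0.135). It was called lower after quantile normalization or median centring, at adjusted p = 0.0113 and 0.0324. 1700025G04Rik, the counterpart of C1orf21, read 3.85 and 3.96 FPKM in control and 4.31 and 4.05 FPKM in differentiation (log2 fold change 0.08, limma adjusted p = 0.397), with the sign turned under quantile normalization. 1700021F05Rik is Mtres1, a mitochondrial protein that binds RNA, and read 2.92 and 2.27 FPKM in control and 1.73 and 2.02 FPKM in differentiation (log2 fold change -0.32, limma adjusted p = 0.11). The authors' deposited table calls it lower. 1700009N14Rik, a gene like Ran, the GTPase of nuclear transport, read 0.49 and 0.462 FPKM in control and 0.313 and 0.742 FPKM in differentiation, with groups that overlap (limma adjusted p = 0.873). Ran itself read 114 and 113 FPKM in control and 108 and 117 FPKM in differentiation.

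1700086D15Rik (chr11:65151910-65159891) was the 1 gene called lower. Its libraries read 4.04 and 3.94 FPKM in control and 2.06 and 2.61 FPKM in differentiation, with means of 3.99 ± 0.0706 and 2.33 ± 0.387 FPKM (SD, n = 2 each). The log2 fold change was -0.59 (SE 0.11, limma adjusted p = 0.0136). The call was lost without control replicate 1 or 2, at limma adjusted p = 0.0675 and 0.0601. RefSeq classes this gene as a long non-coding RNA.

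Of the 47 called genes, 36 stayed called whichever 1 library was left out, and 4 lost the call in each case. Those 4 were 1700031F05Rik (limma adjusted p = 0.0671 to 0.142), 1700030K09Rik (0.0736 to 0.125), 1700011H14Rik (0.051 to 0.077) and 1700092M07Rik (0.0558 to 0.144). 1700092M07Rik, with the RefSeq synonym Tex54, a testis expressed gene by name, had only 2 and 4 against 7 and 7 fragments. It read 0.202 and 0.381 FPKM in control and 0.775 and 0.677 FPKM in differentiation. Their log2 fold changes with 1 library left out were 0.32 to 0.46 for 1700031F05Rik, 0.14 to 0.19 for 1700030K09Rik, 0.44 to 0.54 for 1700011H14Rik and 0.32 to 0.52 for 1700092M07Rik, beside 0.39, 0.16, 0.49 and 0.42 with all libraries. 1700030K09Rik was well covered, at 10.8 and 11.1 FPKM in control and 12.6 and 12.2 FPKM in differentiation, and its groups differed by a log2 fold change of 0.16. Without control replicate 1, the calls of 1700011M02Rik, 1700028P14Rik and 1700019N19Rik were lost, at limma adjusted p = 0.0583, 0.0803 and 0.0579. Those of 1700028P14Rik and 1700019N19Rik were also lost without control replicate 2, at 0.0676 and 0.0517. Without differentiation replicate 1 the call of 1700125H20Rik was lost (adjusted p = 0.0635), and without differentiation replicate 2 that of 1700013F07Rik (adjusted p = 0.0655). The genes just past the threshold on the other side were 1700064H15Rik at 4.96 and 4.18 FPKM in control and 3.0 and 3.61 FPKM in differentiation (limma adjusted p = 0.0596), 1700016D06Rik (adjusted p = 0.0636) and 1700001J03Rik (adjusted p = 0.0663). 1700064H15Rik and 1700016D06Rik were called lower after quantile normalization (limma adjusted p = 0.0364 and 0.0354) and median centring (0.0374 and 0.0383), and 1700001J03Rik was called higher in limma-voom (0.0221).

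The X chromosome holds 4 of the 95 genes, and all were tested. 1700080O16Rik rose from 1.28 and 1.36 FPKM to 5.84 and 4.94 FPKM (log2 fold change 1.46, limma adjusted p = 0.000999). 1700011M02Rik and 1700031F05Rik, with 40.9 kb between them, were called higher by 0.75 and 0.39 on the log2 scale, and both lost the call when single libraries were left out, as given above. 1700013H16Rik, which RefSeq also names Slx2, read 12.2 and 9.89 FPKM in control and 12.7 and 13.6 FPKM in differentiation and was not called (log2 fold change 0.24, limma adjusted p = 0.123).

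The 22 genes that were not tested had little RNA in all libraries. In 10 both differentiation libraries lay above both control libraries, in 3 both lay below, and in 9 the groups overlapped. Over all 31600 features, tested or not, 38.5% lay above and 36.1% lay below. No share was taken over the untested features alone, so nothing is read from these counts. In 19 of them at most 50 fragments were found over the 4 libraries together. 1700017N19Rik read 0.0437 and 0.0412 FPKM in control and 0.598 and 0.96 FPKM in differentiation, from 2 and 2 against 25 and 46 fragments. 1700008O03Rik read 0.21 and 0.303 FPKM in control and 0.735 and 0.601 FPKM in differentiation. 1700012P22Rik had no fragment in control and read 0.462 and 0.454 FPKM in differentiation, at least 5.96-fold higher against the floor of 3 fragments over the group. 1700020A23Rik and 1700001L19Rik had groups that overlap, at 0.695 and 0.197 against 0.305 and 0.465 FPKM and at 0.394 and 0.345 against 0.277 and 0.511 FPKM. The 5 untested genes with the highest mean are these 2, 1700017N19Rik, 1700008O03Rik and 1700006E09Rik. The last was lower in both differentiation libraries, as given above.

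GENCODE M21 gives no coding model for 2 of the 95 genes, 1700013D24Rik and 1700031M16Rik, and neither was tested. The coding models of the others had a median of 210 residues and a range of 71 to 1183. The median was 228 residues in the genes called higher, 213 in those tested and not called, and 186.5 in those not tested that have a coding model. A single-exon coding transcript was found in 5 genes, 3 of them called higher. Exonic bases were shared with another gene by 25 genes and made up more than 10% of the exonic length in 10. RefSeq matched 94 of the 95 and gave 9 of them a class other than protein-coding, 5 of these among the genes called higher.

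Genes whose starts lie within 1000 bases of the start of a gene on the opposite strand were examined as pairs, since such starts can share a promoter. The starts used here are the 5′ ends of the genes in GENCODE M21. The RefSeq starts of 1700028J19Rik, 1700013F07Rik and 1700017N19Rik, used for the promoter windows, lie more than 1000 bases from these. For these genes a shared promoter is uncertain. There were 19 pairs with 18 of the genes, and both partners were tested in 16. In 8 pairs both were called higher, in 2 the 1700 series gene was called higher and the partner lower, and in 2 the 1700 series gene was called higher and the partner was not called. In 1 pair only the partner was called higher, and in 3 neither was called. 1700028J19Rik is counted in 2 of the pairs. Of all 2215 such pairs in the table with both genes tested, 22.4% had both called higher and 10.9% had one called higher and the other lower, and no test was made between the sets of pairs. The starts overlapped in 5 of the 19 pairs, and reads of exonic bases that both genes hold cannot be told apart without strand. Among the 5 is the pair of 1700037H04Rik and Gm14232, in which 1700037H04Rik shares no exonic bases in GENCODE M21.

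1700003E16Rik and Wdr54, a WD repeat gene, start 7 bases apart, and Wdr54 rose from 1.64 and 1.48 FPKM to 3.03 and 3.22 FPKM (log2 fold change 0.69, limma adjusted p = 0.00505). That is far less than the 3.88 of 1700003E16Rik on the same scale. 1700011I03Rik and the long intergenic RNA 1700066O22Rik, 28 bases apart, both rose from under 0.3 FPKM, the partner to 3.72 and 3.96 FPKM (log2 fold change 2.04). 1700066M21Rik and the long intergenic RNA 4930558J18Rik, 76 bases apart, rose by 1.16 and 2.31 on the log2 scale. The pair of 1700028J19Rik and 2410002F23Rik, 27 bases apart in GENCODE M21, moved in opposite directions. The RefSeq window of 1700028J19Rik (chr7:44236073-44236372) lies inside the gene, so a shared promoter is uncertain for this pair. 2410002F23Rik fell from 11.1 and 12 FPKM to 7.83 and 7.98 FPKM (log2 fold change -0.49, limma adjusted p = 0.00318) while 1700028J19Rik rose by 3.85. The plot of the pairs shows this as the widest separation across 0.

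**Figure D3:**
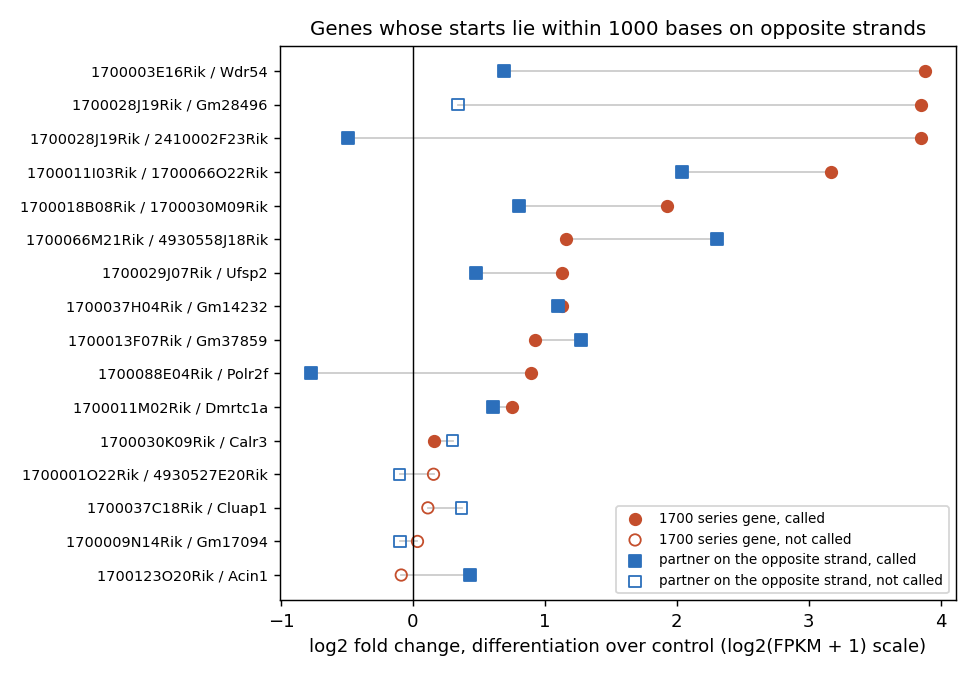
Log2 fold change (differentiation over control, log2(FPKM + 1) scale) of the 16 pairs with both genes tested, with the 1700 series gene as a red circle and its partner on the opposite strand as a blue square, filled where called by limma. In 8 pairs both symbols are filled and lie right of 0, and in 2 pairs a filled red circle stands right of 0 with a filled blue square left of it.

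The outcome was set beside other groups of features of the same table, as a description with no test between groups. Protein-coding genes of the 49 series, another large set of RIKEN testis clones, had 77 tested and 42 not tested, with 47 called higher (61.0% of those tested) and 6 lower, and their median log2 fold change was 0.71. The 307 protein-coding genes with other RIKEN names had 225 tested, 62 called higher (27.6%) and 60 lower, with a median of -0.03. Among the 253 features of the 1700 series with other biotypes, 156 were tested, 77 were called higher (49.4%) and 9 lower, with a median of 0.47. All protein-coding features had 14397 tested, 32.5% called higher and a median of -0.03. A rise of at least 2 on the log2 scale was seen in 16 of the 95 genes of the 1700 series, 15 genes of the 49 series, 18 of the 253 features of the 1700 series with other biotypes and 5 of the 307 genes with other RIKEN names. As shares of those tested these are 21.9%, 19.5%, 11.5% and 2.22%, beside 2.79% of all features tested. These shares were not split by control level, and they can include features that passed the filter only through the differentiation group.

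**Figure D4:**
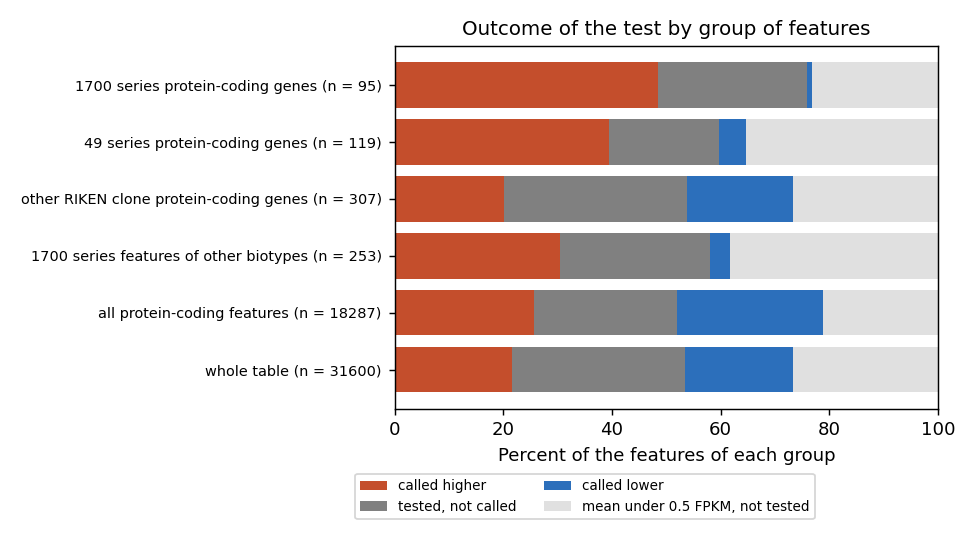
Share of the features of each group (x axis, percent) that were called higher, tested and not called, called lower, or not tested for a mean under 0.5 FPKM, with the number of features beside each name. The bars of the 1700 and 49 series protein-coding genes have the longest red parts and short blue parts, and the other groups except the 1700 series features of other biotypes have blue parts of similar size to the red.

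In the authors' deposited table, 45 of the 95 genes have an adjusted p under 0.05 with a higher level in differentiation and 2 with a lower level, against 22% and 20.3% of all 31600 features. The authors' deposited table and the limma test both call 42 genes higher and 1 lower, with 4 called higher by limma only and 3 by the authors' table only. Those 3 were 1700012P22Rik, 1700008O03Rik and 1700017N19Rik, which did not reach the mean of 0.5 FPKM. They were called higher in a limma fit with no filter.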

How the data were processed

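Long RNA was sequenced in 2 control and 2 differentiation libraries after TRIzol extraction and removal of ribosomal RNA, per the labels' protocols. Per the submitters' processing notes, HISAT2 and the GRCm38 build were used. The counting tool, the annotation and whether strand was used are not stated in the sources used here. The authors deposited FPKM per feature and library, together with their log2 fold change, p-value and adjusted p from a test that is not named.

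FPKM were multiplied by the merged exonic length in GENCODE M21, which matched 31540 of 31600 identifiers, and scaled to whole fragments. In each library 96.2% of features below 300 fragments came out whole, to a tolerance of 0.05. Log2(FPKM + 1) was tested in limma 3.58.1 (R 4.3.3), with group as the only term and an intensity trend in the prior variance. The test was two-sided, with 2 residual degrees of freedom and a prior of 2.14. The fit was also run on simulated fragments with few changed features, which does not measure the rate of false calls in these data. Counting intervals are exact binomial at 95%. Further steps used Python 3.11.15, pandas 2.3.3, numpy 2.4.6, scipy 1.17.1 and matplotlib 3.10.9.

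The members and all lists were chosen with earlier results of these data known. The rule for naming genes took the 12 with the highest level, the 12 with the largest rise, all called lower, those with a known role, the 3 nearest the threshold on each side and the 5 untested with the highest mean, 35 in all. Other members were named after their values were seen. Other settings tried were the pseudocount, low-value filter, scaling, prior variance, a minimum fold, a replicate block and leaving out each library.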

Additional observations from a re-analysis of the deposited data

How the results depend on the processing

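The median log2 fold change of the tested members (0.89) became 1.17 and 1.04 with a pseudocount of 0.1 and 0.5, 0.42 with no filter (95 members), 1.16 at a mean of at least 2 FPKM (41 members), 0.76 after quantile normalization, 0.82 after median centring, 1.20 in a limma-voom fit on recovered fragments chosen after seeing the data, and 0.80 to 0.83 with 1 library left out. The count of members called higher (46) became 52 with no filter, where all 95 were tested. It became 30 at a mean of at least 2 FPKM, where fewer were tested, and 40 to 41 with 1 library left out. The 1 member called lower became 2 with no filter, 5 after quantile normalization or median centring, 3 without the trend, 2 in limma-voom, 0 against a minimum fold of 1.5, and 0 to 1 with 1 library left out. Against a minimum fold of 1.5, limma called 31 members higher, and 2294 features higher and 1176 lower. With 1 library left out, 5094 to 5583 features were called higher and 4344 to 4634 lower. Among the 73 tested members, 8 changed sign under some alternative, 7 of them with 1 library left out and 5 under a scaling, and none was called. Of the members named by rule these were 1700025G04Rik (-0.0095 after quantile normalization) and 1700009N14Rik (-0.11 after quantile normalization, -0.039 after median centring and -0.17 to 0.24 with 1 library left out, the lowest without differentiation replicate 2). The causes were not tested beyond the number of genes or libraries entering each fit.

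The replicate numbers are not said to pair the libraries, and deviations of libraries with the same number had a correlation of -0.000408 across features. With the replicate block, 43 members were called higher and 1 lower, and 6510 and 5788 of all features. The 3 calls lost with the block were those of 1700031F05Rik (0.0629), 1700030K09Rik (0.0665) and 1700092M07Rik (0.0729), as limma adjusted p. Depth limits the 10 members called higher on fewer than 100 fragments over both differentiation libraries and the 22 not tested.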
